A study of Homo sapiens with 6 samples.

Results

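Forkhead genes encode transcription factors that share a DNA-binding domain of winged-helix shape, and they are named FOX followed by a subfamily letter and a number. All protein-coding genes whose symbol is FOX, a letter from A to S and a number were taken, each by its RefSeq transcript accession with the highest base mean (the mean over libraries of reads divided by a size factor). This gave 44 of 19136 protein-coding genes in the authors' deposited table, and they hold 83 of its 67933 accessions. Symbols with a suffix, such as the FOXD4-like genes, fall outside the rule.

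The cells were U87, an established line from a human glioblastoma. The knockout cells are labelled EGFR+vIII TLR2 KO (3 libraries) and their comparison cells EGFR+vIII (3 libraries). Cells of both groups are thus labelled as carrying EGFR, the epidermal growth factor receptor, and vIII, its constitutively active deletion mutant, and TLR2, a Toll-like receptor of innate immunity, is labelled as knocked out in the first group only. How the receptors were introduced, how TLR2 was disrupted, whether a line is 1 clone and whether libraries are separate cultures is not stated in the labels, so p-values reflect only how these libraries vary, and that variation may be technical.

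Forkhead factors of the A class (FOXA) open closed chromatin, and FOXC, FOXF, FOXL and FOXD factors pattern mesoderm, vessels and organ mesenchyme. FOXM1 switches on genes of mitosis. FOXO factors induce genes of stress resistance, fasting metabolism and growth arrest, and the kinase AKT, acting below receptors such as EGFR, drives FOXO proteins out of the nucleus. RNA levels therefore do not report FOXO activity.

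No value per library was at hand: the authors' deposited table gives 1 base mean over all libraries, 1 log2 fold change (also called log2 ratio here; TLR2 KO over EGFR+vIII, as the table's name orders them), its standard error (SE) and a p-value per accession. The base means sum to 11240272 normalized reads, and the library size factors, read from accessions with the base mean of 1 read, range from 0.928 to 1.07. TLR2 cannot check the order of the groups, because all 8 of its accessions are listed at 0 in the authors' deposited table, and with the reverse order all directions reported would flip. EGFR itself had 9 accessions, of which 5 were listed at 0 and the highest had a base mean of 1.32 in the authors' deposited table, so the labelled receptors cannot be checked either. Among cell type markers, VIM had a base mean of 126476 in the authors' deposited table and OLIG2 one of 51.6. The endothelial markers KDR and PECAM1 had base means of 556 and 159 there, and the leucocyte marker CD68 one of 42.6. GFAP and S100B of the glial list, 3 of the 5 leucocyte markers (PTPRC and CD14 among them) and all 4 neuronal markers were listed at 0. Genes with several RefSeq transcripts, such as PTPRC, CD14, GFAP and the neuronal markers, seldom had high base means here. Their zeros therefore do not show that a cell type was absent. No leucocyte, endothelial or epithelial marker had an adjusted p under 0.05 in the authors' deposited table, where 5 of these 13 were tested and 2 had an unadjusted p under 0.05. Of the 8 glial markers, 6 were tested in the authors' deposited table: CHI3L1 (3.01) and NES (1.01) were higher and SOX2 (-2.45) and VIM (-0.29) lower, and whether these shifts bear on the forkhead genes was not tested. In RNA from whole cultures, fewer cells of a kind and less RNA per cell cannot be told apart.

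Of the 44 forkhead genes, 20 had an adjusted p in the authors' deposited table, 5 had reads but too few for one, and 19 were listed at 0. Among the 20, 3 were called higher and 4 lower in TLR2 KO cells (adjusted p under 0.05 in the authors' deposited table). The background over tested protein-coding genes in the authors' deposited table was 13.4% called higher and 14.2% called lower, 27.6% in all. The share of members called lies near that background. Large changes were carried by FOXR2, FOXF1, FOXP2 and FOXC2, 4 of 20, which changed at least 2-fold in the authors' deposited table, where 6.76% of tested protein-coding genes did. The median log2 fold change of the 20 was -0.09, and that of all tested protein-coding genes 0.02, in the authors' deposited table.

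**Figure D1:**
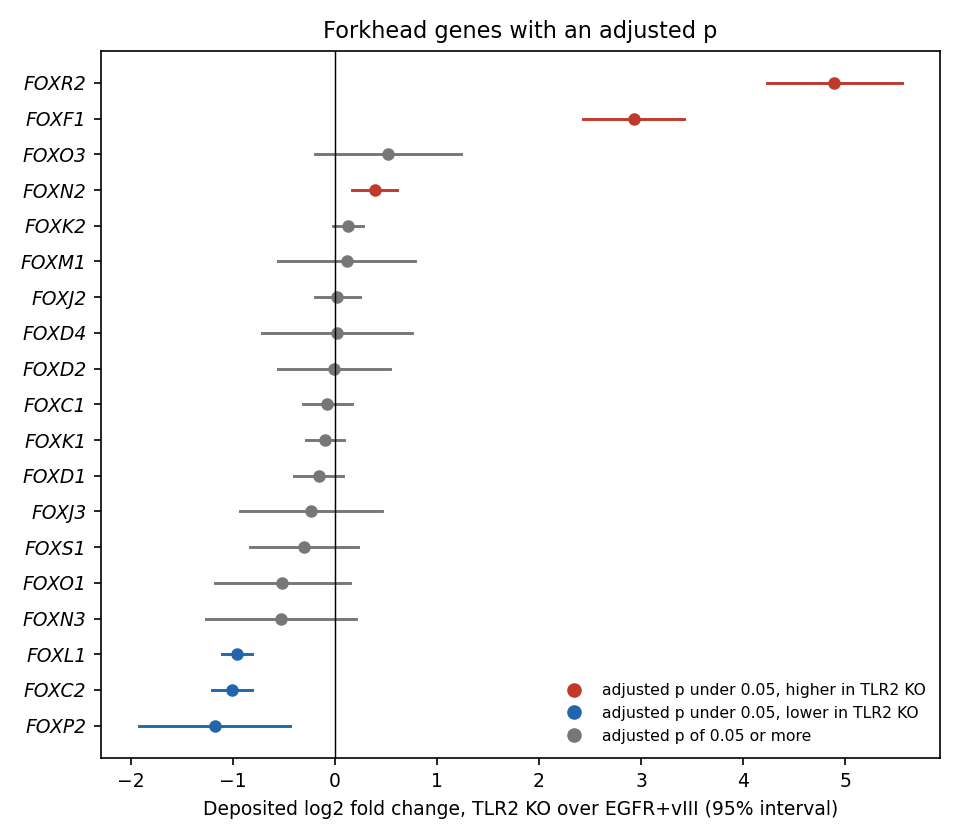
Deposited log2 fold change of TLR2 KO over EGFR+vIII (x axis) for 19 of the 20 forkhead genes with an adjusted p; points are the deposited values and lines the 95% intervals. FOXR2 (4.89) and FOXF1 (2.93) lie far to the right, FOXP2, FOXC2 and FOXL1 lie between -1.18 and -0.96, and the intervals of the 13 genes in grey include 0.

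The largest change was that of FOXR2 (chromosome X, 55623400 to 55626192, GRCh38), an oncogene that is silent in most adult tissues and is activated in a class of embryonal brain tumours. FOXR2 had a base mean of 86.5 and a log2 ratio of 4.89 (SE 0.34, 95% interval 4.23 to 5.55, adjusted p = 2.11e-45), per the authors' deposited table, which ranks 7 among 7859 tested protein-coding genes. That is a 29.7-fold higher level in TLR2 KO than in EGFR+vIII cells on the deposited scale, and the largest standard error of the table is 0.382, even at its lowest tested base mean of 3.11, so that fold changes of genes with few reads appear drawn towards 0. Of 5838 tested accessions of the authors' deposited table with a base mean no higher than that of FOXR2, 0 had a larger log2 fold change, and the next was 4.77. Since fold changes at few reads appear drawn towards 0, this set limits how large its values can be and adds no support to the rank. Whether the EGFR+vIII libraries held a few reads of FOXR2 or none cannot be told from the deposited values. The tested genes around it did not share the change: of 7 within 1 Mb, 0 rose and 1, MAGEH1 (-0.37, adjusted p = 0.0355), fell in the authors' deposited table, and at an unadjusted p under 0.05, 1 was higher and 2 were lower. Relative to the median of its 20 nearest tested genes, FOXR2 kept a log2 ratio of 5.03, computed from the authors' deposited table.

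The sequence just upstream of FOXR2 is shown because this gene carries the family's largest change and its start region differs from those of most relatives. The 250 bases before its start (chrX:55623150-55623399, plus strand, RefSeq, GRCh38.p14) read as follows, 5′ to 3′, with capitals marking TATAAA read on the opposite strand.
FOXR2: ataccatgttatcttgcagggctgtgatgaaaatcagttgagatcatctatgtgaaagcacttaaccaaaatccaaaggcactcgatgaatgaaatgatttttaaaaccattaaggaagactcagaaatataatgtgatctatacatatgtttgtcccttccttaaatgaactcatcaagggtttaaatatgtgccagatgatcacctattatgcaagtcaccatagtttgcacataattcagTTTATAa
These 250 bases hold 33.6% G and C, against a median of 58.0% over 35116 promoter windows of the same length. Their ratio of observed to expected CpG pairs is 0.142, against a median of 0.558. RefSeq windows were found for 33 of the 44 forkhead genes (44 windows), and 5 of these windows had a CpG ratio below 0.2: those of FOXR2, 1 each of FOXO3 and FOXP2, and 2 of FOXP1. The motif TATAAA, searched on both strands, occurs in 10.7% of all windows.

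The next change joined 3 forkhead genes that are neighbours on chromosome 16, FOXF1, FOXC2 and FOXL1. FOXF1 directs lung vessel and gut mesenchyme development, FOXC2 lymphatic vessels and their valves, and FOXL1 the mesenchyme below the gut epithelium. FOXF1 rose in TLR2 KO cells, and FOXC2 and FOXL1, which start 56.3 and 68.0 kb downstream of the FOXF1 start, fell. FOXF1 (86510527 to 86515422) had a base mean of 120 and a log2 ratio of 2.93 (SE 0.25, 95% interval 2.43 to 3.42, adjusted p = 2.77e-29), per the authors' deposited table. With 3 libraries a group, these values of the authors' deposited table correspond to about 213 normalized reads of FOXF1 per TLR2 KO library and 28.0 per EGFR+vIII library, a 7.60-fold difference. Such levels take the deposited fold change as the ratio of the group means. Where it is drawn towards 0, the group means lie further apart than these levels.

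FOXC2 (86566829 to 86569728) had a base mean of 1013 and a log2 ratio of -1.01 (SE 0.10, 95% interval -1.21 to -0.81, adjusted p = 1.09e-21), per the authors' deposited table. For FOXC2, the values of the authors' deposited table correspond to about 672 normalized reads per TLR2 KO library and 1353 per EGFR+vIII library. FOXL1 (86578549 to 86583478) had the highest base mean of the family, 5610, and a log2 ratio of -0.96 (SE 0.08, 95% interval -1.10 to -0.81, adjusted p = 7.17e-35), per the authors' deposited table. That corresponds to about 3817 normalized reads of FOXL1 per TLR2 KO library and 7404 per EGFR+vIII library in the authors' deposited table. The log2 fold change of FOXC2 minus that of FOXL1 in the authors' deposited table was -0.05, smaller in size than the SE of either, and that of FOXF1 exceeds those of FOXC2 and FOXL1 by 3.93 and 3.88. FOXF1, FOXC2 and FOXL1 passed under all 8 alternative settings.

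FENDRR, a long noncoding RNA that is read in the other direction from FOXF1 and starts 1.67 kb from it, rose by almost the same factor. Its accession with the higher base mean (22.7) had a log2 ratio of 2.95 (SE 0.38, adjusted p = 1.91e-13), per the authors' deposited table. The other accession of FENDRR had a base mean of 4.36 and a log2 ratio of 0.67 (adjusted p = 0.129), per the authors' deposited table. LINC01082, a long noncoding RNA on the FENDRR side of FOXF1 and within 1 Mb, had a base mean of 7.92 and rose by 1.51 (SE 0.37, adjusted p = 0.000358) in log2 units of the authors' deposited table, a call lost with scaled Wald scores (adjusted p = 0.160) and against a null of 1.5-fold (0.124). FOXC2-AS1, which overlaps FOXC2 on the opposite strand, had a base mean of 6.01 and a log2 ratio of -0.29 (SE 0.37, adjusted p = 0.669), per the authors' deposited table. Since the strandedness of the libraries is not given, reads of FOXC2 and FOXC2-AS1 in their overlap cannot be told apart. LINC01082 was chosen after its value was seen.

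The upstream sequence of FENDRR is shown because it lies between FENDRR and FOXF1, which rose together. Its 250 bases (chr16:86508861-86509110, minus strand, RefSeq, GRCh38.p14) are given 5′ to 3′, with capitals marking GTAAACA, the forkhead consensus TGTTTAC read on the opposite strand.
FENDRR: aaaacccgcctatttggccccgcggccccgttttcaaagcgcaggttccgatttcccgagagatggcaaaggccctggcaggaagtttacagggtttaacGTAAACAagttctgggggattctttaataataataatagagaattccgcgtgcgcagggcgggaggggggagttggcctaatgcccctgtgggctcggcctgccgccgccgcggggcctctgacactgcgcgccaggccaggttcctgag
The match begins at position -150 from the FENDRR start. TGTTTAC, searched on both strands, occurs in 2.98% of the 35116 RefSeq windows of this length, and the looser TGTTTNC, which includes it, in 15.5%. Among the 44 windows of forkhead genes, 1 holds TGTTTAC, a FOXP1 window, and 4 hold TGTTTNC. A match of letters does not show that a factor binds there.

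**Figure D2:**
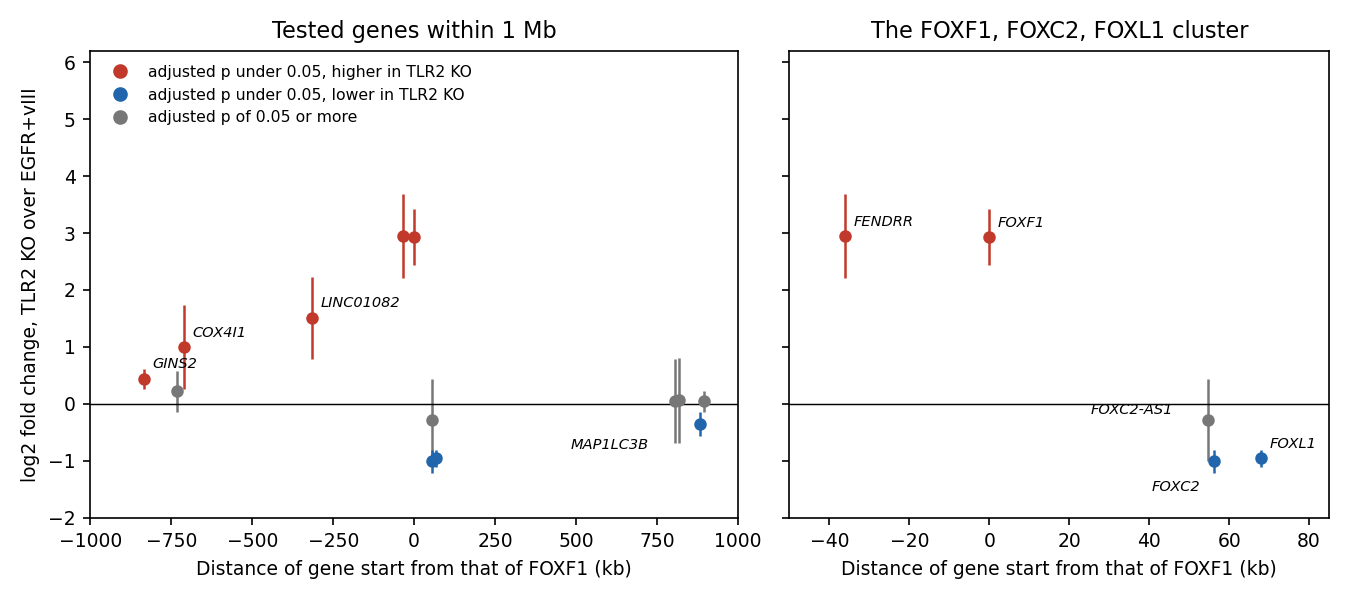
Deposited log2 fold change (y axis, with 95% intervals) of tested genes by the distance of their start from that of FOXF1 in kb (x axis), within 1 Mb (left) and in the cluster (right). FENDRR and FOXF1 lie near 2.9, and FOXC2 and FOXL1, 56.3 and 68.0 kb away, lie near -1.

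Within 1 Mb of FOXF1, 12 other genes were tested in the authors' deposited table: 4 were called higher, namely FENDRR, LINC01082, COX4I1 (0.99 on a base mean of 15.2, adjusted p = 0.0380) and GINS2 (0.44, adjusted p = 2.09e-05). The 3 called lower were FOXC2, FOXL1 and MAP1LC3B (-0.36, adjusted p = 0.00472), per the authors' deposited table. Over all tested protein-coding genes 27.6% were called. The 12 include FOXC2 and FOXL1 themselves and noncoding genes, so these counts do not describe the region as a whole. The median log2 fold change of the 20 tested genes nearest to FOXF1 in the authors' deposited table was 0.06. Subtracting such a median from each, FOXF1 kept 2.87, FOXC2 -1.15 and FOXL1 -1.02.

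FOXN2 (chromosome 2, 48313659 to 48379295) and FOXP2 (chromosome 7, 114086327 to 114693765) were also called, and both calls depended on the setting. FOXN2 had a base mean of 901 and a log2 ratio of 0.39 (SE 0.11, 95% interval 0.17 to 0.61, adjusted p = 0.00412), per the authors' deposited table. Its values in the authors' deposited table correspond to about 1022 normalized reads per TLR2 KO library and 780 per EGFR+vIII library, a 1.31-fold difference. FOXP2, a regulator of vocal learning circuits in the brain, had a base mean of 11.6 and a log2 ratio of -1.18 (SE 0.38, 95% interval -1.92 to -0.44, adjusted p = 0.00988), per the authors' deposited table. FOXP2 has 8 accessions, its reads sit on an accession of RefSeq's noncoding class, and its 7 others are listed at 0 in the authors' deposited table. Scaling the Wald scores of the authors' deposited table by their central spread ended both calls (adjusted p = 0.324 for FOXN2 and 0.415 for FOXP2), as did a null of 1.5-fold (1 for FOXN2 and 0.774 for FOXP2).

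**Figure D3:**
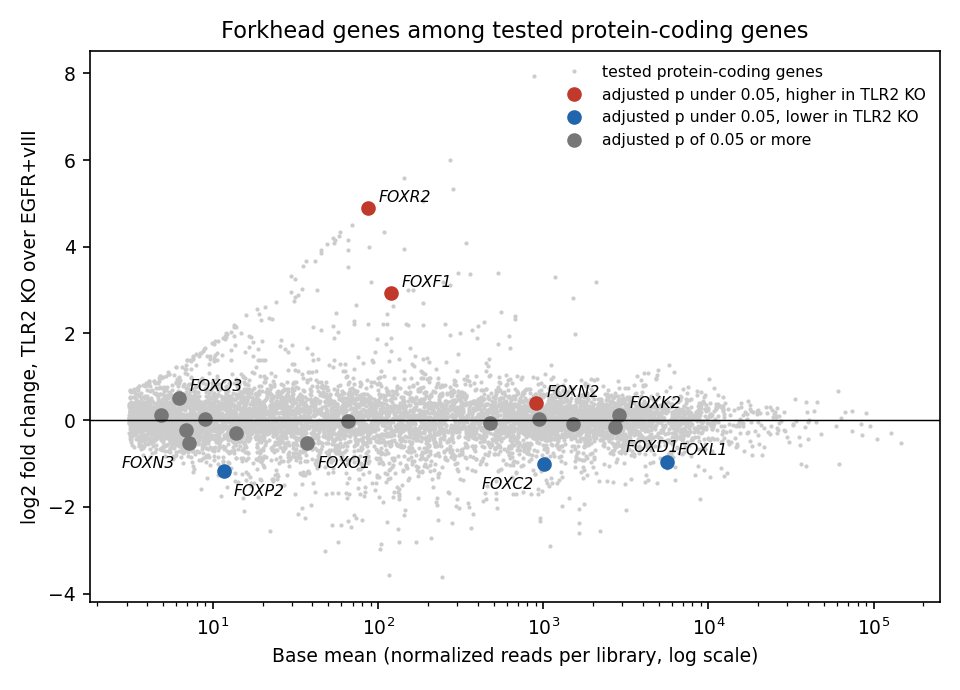
Deposited log2 fold change (y axis) against base mean on a log scale (x axis) for 7859 tested protein-coding genes (small grey dots) and 19 of the 20 tested forkhead genes (large points). FOXR2 lies on the upper edge of the cloud at a base mean of 86.5, and FOXL1, the member with the highest base mean, lies at 5610 and -0.96.

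The 5 members with at least 100 normalized reads that were not called were measured closely. They were FOXD1, a factor of kidney stroma, FOXK1 and FOXK2, repressors of autophagy and starvation genes, FOXC1, a relative of FOXC2 in eye and vessel development, and FOXJ2. FOXK2 had a log2 ratio of 0.13 (SE 0.08, adjusted p = 0.244) and FOXD1 one of -0.16 (SE 0.12, adjusted p = 0.424), per the authors' deposited table. FOXK1 (-0.10), FOXC1 (-0.07) and FOXJ2 (0.03) had adjusted p-values of 0.552, 0.760 and 0.921 in the authors' deposited table. The 95% intervals of the 5, from the authors' deposited table, run from -0.40 to 0.28, so that a fall beyond 1.32-fold or a rise beyond 1.21-fold lies outside them all. FOXJ2 changed sign and passed the threshold, at -0.31 (adjusted p = 0.0330) relative to its 20 nearest tested genes. Of the 10 tested members with a base mean of at least 100 in the authors' deposited table, 5 were called, beside 43.6% of such protein-coding genes.

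FOXC1 and FOXC2 encode close relatives and sit on different chromosomes. The interval of FOXC1 in the authors' deposited table (-0.31 to 0.17) does not reach that of FOXC2 (-1.21 to -0.81). FOXF2, the relative of FOXF1, and FOXQ1, which lie beside FOXC1 on chromosome 6, were both listed at 0 in the authors' deposited table.

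The other 8 uncalled members had base means of 4.83 to 65.4 and SEs of 0.27 to 0.38 in the authors' deposited table, so their fold changes are known only loosely. Since fold changes at few reads appear drawn towards 0, the intervals of these members may be too narrow as bounds on the change. FOXO1 had a base mean of 37.0 and a log2 ratio of -0.51 (95% interval -1.17 to 0.14, adjusted p = 0.310), per the authors' deposited table. FOXO3 had a base mean of 6.26 and a log2 ratio of 0.52 (95% interval -0.20 to 1.24, adjusted p = 0.358), and its second accession, at 1.94 reads, one of -0.37, in the authors' deposited table. FOXN3, a checkpoint suppressor, was at -0.53 (adjusted p = 0.369) and its second accession at 0.05, in the authors' deposited table. FOXM1, the mitotic factor, had a base mean of 4.83 over the best of its 5 accessions and a log2 ratio of 0.11 (95% interval -0.55 to 0.78, adjusted p = 0.878), per the authors' deposited table, a sign that turned relative to its 20 nearest tested genes (-0.041). FOXM1 overlaps ITFG2 and RHNO1, and reads in such overlaps cannot be assigned without strand. FOXS1 (-0.30), FOXJ3 (-0.23), FOXD4 (0.02) and FOXD2 (-0.01) had adjusted p-values of 0.502, 0.735, 0.982 and 0.992 in the authors' deposited table, and FOXD4 was at -0.031 relative to its 20 nearest tested genes. FOXD4 has near-identical copies, the FOXD4L genes, with which it can share reads, and the 5 such genes in the authors' deposited table were listed at 0. FOXD2-AS1, beside FOXD2, had a base mean of 121 and a log2 ratio of 0.07 (adjusted p = 0.890), and FOXN3-AS1, which lies within FOXN3, one of 10.5 and -0.26 (adjusted p = 0.719), in the authors' deposited table.

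Levels can be compared between genes only per length. Dividing the base means of the authors' deposited table by transcript length gave 1535 normalized reads per kb for FOXL1, 1191 for FOXD1, 549 for FOXK2 and 409 for FOXC2. FOXJ2, FOXN2, FOXK1 and FOXC1 had 171, 167, 136 and 124 normalized reads per kb in the authors' deposited table. FOXR2 and FOXF1 averaged 44.9 and 34.3 normalized reads per kb over all libraries of the authors' deposited table. FOXL1 stood above 92.7% and FOXD1 above 90.7% of tested protein-coding genes on this per-length scale. Many genes with several RefSeq transcripts had low base means here, so these shares may be too high. Without values per library the spread of these levels is unknown, so neighbours in this order are not shown to differ.

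**Figure D4:**
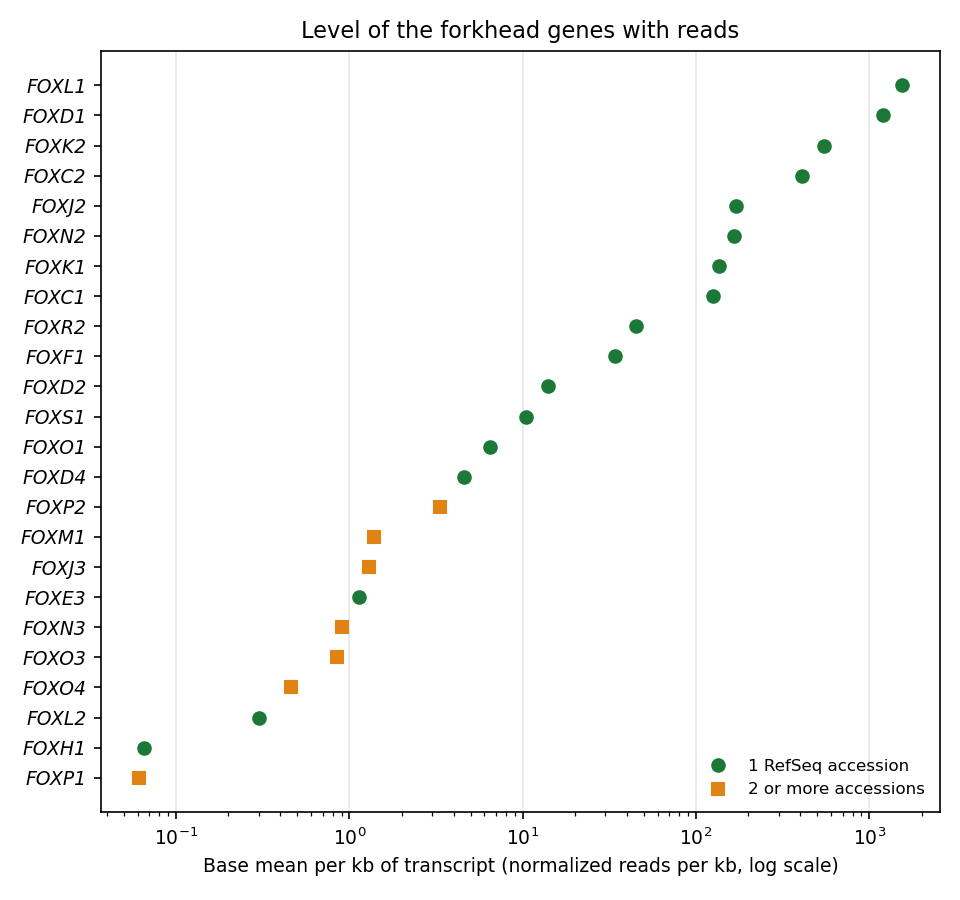
Base mean per kb of transcript on a log scale (x axis) for 24 of the 25 forkhead genes with reads, as circles for genes with 1 RefSeq accession and squares for genes with 2 or more. FOXL1 leads at 1535 normalized reads per kb, and all 7 genes drawn as squares lie below 4.

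High base means were found among members with 1 accession in the authors' deposited table. Of 33 such members, 10 reached a base mean of 100 and 15 were listed at 0. Of 11 members with 2 or more accessions, 0 reached 100, 4 were listed at 0, and the highest base mean was 11.6, so what differed was the level and not the share with reads. Across the protein-coding genes in the authors' deposited table the level differed too, and a base mean of 100 was reached by 40.8% of those with 1 accession and by 7.30% of those with more. A listing at 0 or a low base mean of FOXM1, FOXO3, FOXP1 (18 accessions, 0.159) or FOXP4 (3 accessions, all at 0) in the authors' deposited table therefore does not show that the gene was silent. Of the 15 members whose accession has a single exon, 11 had reads and 4 were called in the authors' deposited table, FOXC2, FOXL1 and FOXR2 among them. Not all of the 15 were tested. Over all tested protein-coding genes 27.6% were called, and the share among single-exon genes was not computed, so no excess is shown.

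In the authors' deposited table, 5 members with reads were left without an adjusted p: FOXE3 (base mean 2.25), FOXO4 (1.52), FOXL2 (0.877), FOXH1 (0.163) and FOXP1. With 0 reads on each of their accessions in the authors' deposited table were FOXA1, FOXA2 and FOXA3 of the A class, FOXB1, FOXB2, FOXD3, FOXE1, FOXF2, FOXI1, FOXI2, FOXI3, FOXJ1, FOXN1, FOXN4, FOXO6, FOXP3, FOXP4, FOXQ1 and FOXR1. FOXP3, the master factor of regulatory T cells, and FOXJ1, that of motile cilia, are in this group. Together the 19 make up 43.2% of the family, beside 39.3% of protein-coding genes listed at 0 in the authors' deposited table.

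Genes that work with or below forkhead factors were described by 8 lists, in which 42 of 115 different tested genes were called (36.5%, beside 27.6% of all tested protein-coding genes), against 15 with scaled Wald scores and 5 when tested for a change of more than 1.5-fold. The list of FOXO targets had 22 of 37 members tested in the authors' deposited table, of which 9 were lower, 3 higher and 10 not called (54.5% called, beside 27.6% of tested protein-coding genes), with a median log2 fold change of -0.34 (0.02 over all tested protein-coding genes). IGFBP1, an insulin-like growth factor binding protein, fell by 2.04 (SE 0.09, adjusted p = 5.1e-108) in log2 units of the authors' deposited table. PDK4, a kinase that spares glucose in fasting, was at -1.44 (base mean 17.8, SE 0.38, adjusted p = 0.000943), per the authors' deposited table. MXI1, an antagonist of MYC, was at -0.99 (base mean 41.5, SE 0.34) and catalase, CAT, at -0.99 (SE 0.10, adjusted p = 8.7e-20), per the authors' deposited table. KLF2 (0.85, SE 0.18), the insulin signalling adaptor IRS2 (0.73, SE 0.11) and TXNIP (0.54, SE 0.11), an inhibitor of glucose uptake, were higher in the authors' deposited table. The CDK inhibitor genes CDKN1B and CDKN1A of the same list were not called. CDKN1B was at 0.13 (base mean 1230, adjusted p = 0.401) and CDKN1A at -0.89 (base mean 5.77, SE 0.36, adjusted p = 0.0593), per the authors' deposited table. With scaled Wald scores 3 genes of the list were called lower and 2 higher, the calls of PDK4 (adjusted p = 0.212), MXI1 (0.478) and KLF2 (0.0702) being lost, and with a null of 1.5-fold 2 were lower and 0 higher. CDKN1A and CDKN1B were chosen after their values were seen. The part of FOXO factors in these changes was not tested.

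Regulators of FOXO proteins had 19 of 36 members tested in the authors' deposited table, with 4 higher, 3 lower (36.8% called, beside 27.6% of all tested protein-coding genes) and a median of 0.07. Of 7 genes for 14-3-3 proteins, which hold FOXO proteins in the cytoplasm, 2 were called higher, 1 lower, 3 (YWHAG, YWHAQ and YWHAZ) were tested and not called, and YWHAE was listed at 0, by the authors' deposited table. SFN was at 1.47 (SE 0.38, adjusted p = 0.000784), YWHAB at 0.63 (SE 0.22, adjusted p = 0.0171) and YWHAH at -0.45 (SE 0.08, adjusted p = 3.21e-07), per the authors' deposited table. The kinase STK3 was at 1.27 (SE 0.36) on a base mean of 6.88, and MTOR at 0.28 (SE 0.08), in the authors' deposited table. PIK3CB (-0.37, SE 0.10) and PIK3CA (-0.31, SE 0.08; also on the list of FOXO targets), catalytic subunits of the kinase above AKT, were lower in the authors' deposited table. With scaled Wald scores 0 regulators were called higher and 1, YWHAH, lower. Relative to their 20 nearest tested genes, YWHAB (adjusted p = 0.0856), MTOR (0.115), PIK3CA (0.118) and PIK3CB (0.0606) lost their calls. AKT1, also named after its value was seen, had a log2 ratio of 0.09 (adjusted p = 0.908) on a base mean of 22.0 in the authors' deposited table.

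Targets of FOXM1 had 17 of 31 members tested in the authors' deposited table, with 4 higher, 1 lower (29.4% called, near the 27.6% of all tested protein-coding genes) and a median of 0.19. CCNA2, cyclin A, rose by 0.51 (SE 0.07, adjusted p = 1.78e-10), and KIF20A (0.34), CDC20 (0.25) and TPX2 (0.21), all of the mitotic spindle and its checkpoint, rose less, in log2 units of the authors' deposited table. CCNB2, cyclin B2, was lower at -0.21 (adjusted p = 0.0465), per the authors' deposited table. With scaled Wald scores 1 target, CCNA2, was called higher and 0 lower. Relative to neighbours TPX2 (adjusted p = 0.347) and CCNB2 (0.643) lost their calls, while in all 6 targets were called higher and 0 lower. With a base mean of at least 100, 6 were called higher and 1 lower. The list of partners of FOXM1 and of the MuvB complex, which recruits it, also held cell cycle regulators such as E2F factors and D cyclins. It had 13 of 22 tested in the authors' deposited table, 4 higher and 0 lower (30.8% called, near the same background), with a median of 0.38. The 4 were CCND2 (1.07, base mean 5.44), E2F1 (0.61), the FOXM1-activating kinase gene CDK4 (0.56) and E2F4 (0.38). Of the MuvB core, LIN9 (-0.22), LIN37 (0.02), LIN52 (0.35) and LIN54 (0.19) were tested and not called, nor was MYBL2 (0.54). These genes were named after their values were seen. At an unadjusted p under 0.05, 6 of the 13 tested partners were higher and 0 lower by the authors' deposited table. Of the 17 tested FOXM1 targets, 7 were higher and 1 lower at that threshold. The share of all tested genes at an unadjusted p under 0.05 was not computed. With scaled Wald scores E2F1 and CDK4 kept their calls, and CCND2 (adjusted p = 0.456) and E2F4 (0.284) lost theirs. Relative to neighbours CCND2 lost its call (adjusted p = 0.136), and 3 listed partners were higher and 1 lower. Corepressors of FOXK, FOXP and other forkhead proteins had 16 of 27 tested in the authors' deposited table, 2 higher and 1 lower (18.8% called, below the 27.6% of all tested protein-coding genes), with a median of 0.21. MTA2, a subunit of the NuRD complex, rose by 1.02 (SE 0.14, adjusted p = 1.56e-11), HCFC1 by 0.49 (SE 0.08), and BAP1, a deubiquitinase that FOXK factors recruit, was at -0.20 (adjusted p = 0.0492), in log2 units of the authors' deposited table. The call of BAP1 ended in 4 settings: with scaled Wald scores (adjusted p = 0.635), a null of 1.5-fold (1), adjustment over every accession (0.0865), and relative to neighbours, where its log2 ratio was -0.0055 (0.976).

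Hedgehog signalling induces FOXF1 and FOXL1 in gut mesenchyme of the mouse. Of its 17 listed genes, 9 were tested in the authors' deposited table, with 2 higher, 2 lower (44.4% called, beside 27.6% of all tested protein-coding genes) and a median of -0.12. The ligand SHH fell by 2.25 (SE 0.28, adjusted p = 4.98e-14) and the transcription factor GLI2 by 0.56 (SE 0.16), while the coreceptors GAS1 and BOC rose by 1.17 (SE 0.28) and 0.82 (SE 0.30), in log2 units of the authors' deposited table. With scaled Wald scores SHH alone of these 4 passed, and GAS1 (adjusted p = 0.143), BOC (0.557) and GLI2 (0.288) did not. Factors of epithelial-mesenchymal transition, a process in which FOXC2 and FOXQ1 act, had 9 of 15 tested in the authors' deposited table, 1 higher and 4 lower (55.6% called, beside the same background), with a median of -0.29. CDH2 (-0.83), TWIST1 (-0.80), SNAI2 (-0.50) and VIM (-0.29) were lower and TWIST2 (0.89, base mean 4.71) higher in the authors' deposited table. Relative to their 20 nearest tested genes TWIST1 (adjusted p = 0.0956), VIM (0.265) and TWIST2 (0.0608) no longer passed. With scaled Wald scores CDH2 (adjusted p = 0.155), VIM (0.276) and TWIST2 (0.599) did not pass. Ciliary genes of FOXJ1 had 11 of 26 tested in the authors' deposited table, 0 higher and 3 lower (27.3% called, as in the background of 27.6%), with a median of -0.05. Of the 11, 6 had an unadjusted p under 0.05, 3 higher and 3 lower, and the share of all tested genes at that threshold was not computed. The dynein genes DNAH11 (-1.86, SE 0.16) and DNAH5 (-0.86, SE 0.25) and the multiciliation regulator GMNC (-1.20, SE 0.35) were lower in the authors' deposited table, and the calls of DNAH5 (adjusted p = 0.316) and GMNC (0.323) ended with scaled Wald scores.

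**Figure D5:**
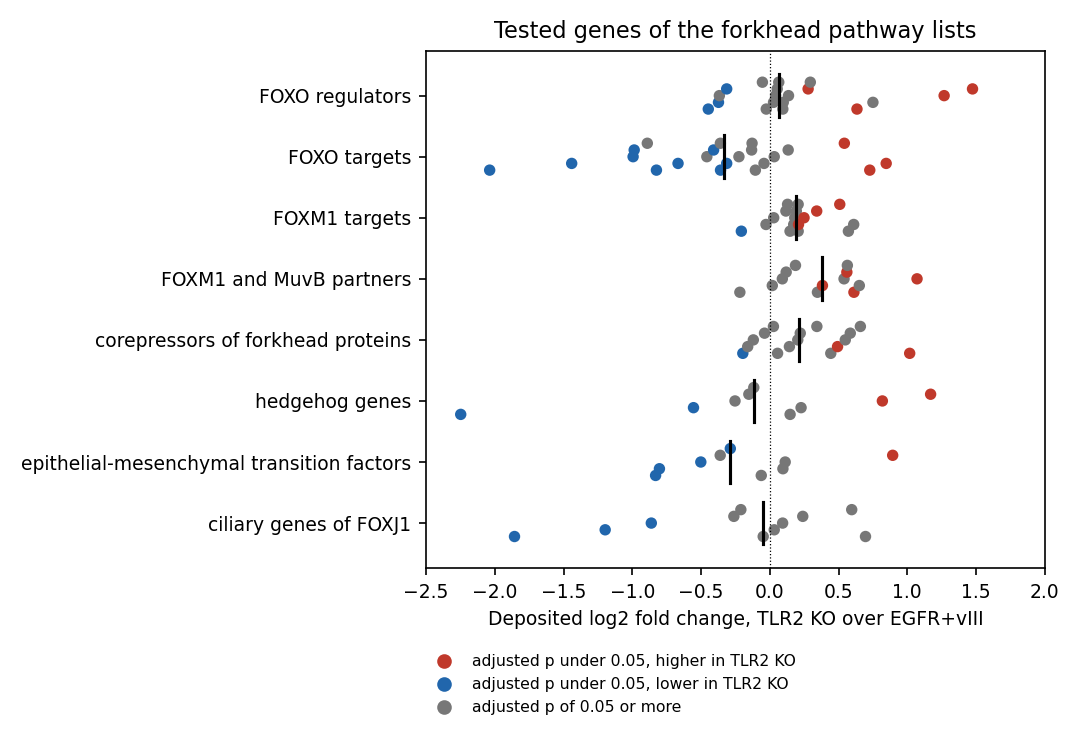
Deposited log2 fold change of TLR2 KO over EGFR+vIII (x axis) for each tested gene of the 8 pathway lists (rows); points are genes and black bars medians. FOXO targets have a median of -0.34, with IGFBP1 at -2.04, and FOXM1 and MuvB partners one of 0.38.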

How the data were processed

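RNA of U87 cells labelled EGFR+vIII TLR2 KO (3 libraries) and EGFR+vIII (3 libraries) was sequenced, and 1 table of the comparison was analysed. Per the submitters' processing notes, STAR, DESeq2 and hg38 were used; the sources used here give no version, setting, annotation release, counter or strandedness. The authors' deposited base mean is a signal, the mean of reads divided by size factors. The log2 fold change with its standard error as deposited, the deposited Wald score (their ratio) and the deposited p-value and adjusted p-value are the authors' own. The adjusted p-value equals a Benjamini-Hochberg adjustment over 10303 accessions. Depth per library is unknown, and no count test per library, with edgeR or otherwise, could be run, so calls rest on the authors' test at an adjusted p under 0.05.

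Accessions were matched to RefSeq genes of GRCh38.p14 (98.8% matched), and each gene was taken by its accession with the highest base mean. Exon counts and transcript lengths came from GENCODE 29. Group levels were computed from base mean and fold change with 3 libraries a group, taking the deposited fold change as the ratio of the group means. Intervals of 95% assume a normal error and use the deposited standard errors, so they may be too narrow for genes with few reads. Upstream sequences came from RefSeq. Python 3.11.15 with pandas 2.3.3 and scipy 1.17.1 was used, and the recomputed tests were tested on simulated data. These had few changed genes and normal errors of the deposited size. They do not show how the tests behave at the wider spread of Wald scores found here. All forkhead genes were named except where a result is not reported here, with up to 4 called genes in each direction per pathway list and noncoding partners with an adjusted p. Members and lists were chosen with earlier results of these data known. Alternatives changed the null, the spread of the Wald scores, the filter, the accessions per gene, the centring and the chromosomal reference.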

Additional observations from a re-analysis of the deposited data

How the results depend on the processing

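Of 8 alternative settings, 1 (genes with 1 accession alone) was chosen after seeing the data. FOXF1, FOXC2 and FOXL1 were called in all 8 and FOXR2 in the 7 in which it was tested, in their reported directions. Against a null of a change of more than 1.5-fold, 2 forkhead genes were called lower in place of 4, and 5 pathway genes were called in place of 42; FOXO targets called higher numbered 0 in place of 3 and those called lower 2 in place of 9. With Wald scores divided by their central spread of 1.749, 15 pathway genes and 3 lower FOXO targets were called. Relative to the 20 nearest tested genes, FOXJ2 (-0.31), FOXD4 (-0.031) and FOXM1 (-0.041) changed sign, and 5 forkhead genes were called lower, FOXJ2 among them. The cause of these shifts was not tested. Of 65 named genes, 37 lost their call under the 1.5-fold null, 27 under scaled scores, 4 when every accession was adjusted and 11 relative to neighbours. No paired analysis was possible because the table holds no value per library, and leaving out each replicate was not run for the same reason. Base means under 100 went with standard errors of 0.27 to 0.38 among forkhead genes not called, which limits what could be detected there.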
